A study of Mus musculus with 2 samples.

Results

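Conventional type 1 dendritic cells (cDC1) are a sparse lineage of antigen-presenting cells. The members described here were selected on the UMIs (unique molecular identifiers, counts of captured transcripts) of 4 marker genes in 2 droplet single-cell libraries made from pooled bowel and MAT, the mesenteric adipose tissue attached to it, of mice. A member had at least 2 UMIs over Xcr1, Clec9a, Naaa and Wdfy4, at least 1 of them from Xcr1 or Clec9a, and at least 3 over the MHC class II genes H2-Aa, H2-Ab1 and Cd74. It had at most 1 UMI over the macrophage genes C1qa, C1qb and C1qc, and 0 of Cd79a (B cells), Cd3e (T cells) and Epcam (epithelium). Of 42143 cells kept in the sham library, 238 were members (0.565%, exact Clopper-Pearson 95% interval 0.495 to 0.641). In the colotomy library 39 of 9246 kept cells were members (0.422%, interval 0.300 to 0.576).

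Both libraries came from B6/C57 mice aged 8 to 12 weeks, 14 days after either a colotomy, a surgical cut into the colon, or a sham operation. Each pooled cells of bowel and MAT marked with 2 hashtag antibodies, and how many animals entered a pool is not given in the sources used here. There was 1 library per group, so no value below has a replicate and no test between the operations was possible. All intervals are 95% intervals that cover counting error only. Values are CPM, the summed UMIs of a gene counted against all UMIs of the cell set and multiplied to a total of 1000000, and ratios are on the log2 scale unless a fold is named.

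In the textbook account, cDC1 take up material from dying and infected cells and present it on MHC class I to CD8 T cells, which is called cross-presentation. Their development depends on the transcription factors Irf8, Batf3 and Id2 and on the growth factor receptor Flt3. Xcr1 is the receptor for the lymphocyte chemokine Xcl1, Clec9a binds actin filaments exposed on dead cells, Wdfy4 is needed for cross-presentation of cell-bound antigen, and Naaa is a lysosomal amidase. A second lineage, cDC2, mainly presents antigen to CD4 T cells on MHC class II.

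Sham members had a median of 2271 UMIs, against 937.0 in colotomy members and 1328 in all kept sham cells. The members summed to 571921 UMIs in the sham and 37915 in the colotomy library, so the account rests mainly on the sham cells. Libraries shared 108 kept barcodes, of which 0 were members. The hashtags gave little information on the tissue of single members. The deposited reference pairs the following oligos with bowel and MAT, and they are shown because the origin of a member would be read from them.
HTO_1 (bowel): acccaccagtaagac
HTO_2 (MAT): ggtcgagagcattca
At a 3-fold excess of one normalised hashtag over the other, 4 sham members were given to bowel, 4 to MAT and 230 to neither. Among colotomy members 5 were given to MAT, 0 to bowel and 34 to neither. Each hashtag was first divided by its median over the kept cells of its library, which removes any difference in level between libraries. Median raw UMIs of HTO_1 and HTO_2 were 497.5 and 1386 in sham members, and 2499 and 542.0 in colotomy members. All kept cells showed the same turn, with 548.0 and 1403 in sham and 2651 and 463.0 in colotomy. Whether the shares of bowel and MAT differed between the pools was not tested. Tissue of origin is not used below.

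The 4 selection genes were not found together in most members. In the sham library Xcr1 was detected in 188 of 238 members, Naaa in 186, Wdfy4 in 179 and Clec9a in 133. Xcr1 and Clec9a occurred together in 83 members (34.9%), and all 4 markers in 53 (22.3%). The median member held 5.00 marker UMIs and the highest 16. In the colotomy library Xcr1 was detected in 31 of 39 members, Naaa in 28, Clec9a in 17 and Wdfy4 in 16, with a median of 3 marker UMIs. These counts are fixed in part by the rule and describe the selection.

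**Figure D1:**
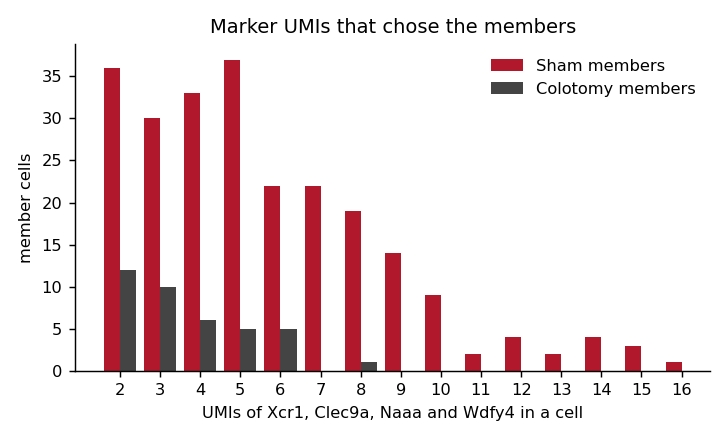
Number of member cells (y axis) by the UMIs of the 4 selection genes in a cell (x axis), sham in red and colotomy in grey. The lowest class, 2 UMIs, holds 36 sham and 12 colotomy members, and the highest sham member holds 16.

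At the threshold, the 36 sham members with 2 marker UMIs had 8659 CPM of Cst3, which encodes the protease inhibitor cystatin C, and 1490 of Irf8. Just outside, 54 cells met every other condition but had a single marker UMI, from Xcr1 or Clec9a. They had 3543 CPM of Cst3 and 1290 of Irf8, together with 423.1 of Siglech, a marker of plasmacytoid dendritic cells (pDC), against 109.8 just inside. Their Igkc, an antibody light chain, was 22348 CPM against 1271 inside. A further 210 cells had marker UMIs from Naaa and Wdfy4 alone. Those had 4587 CPM of Cst3, 723.4 of Irf8 and 1074 of Lyz2, the lysozyme of macrophages and monocytes, against 313.7 of Lyz2 in the members with 2 marker UMIs.

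The cDC1 label was checked in the sham library on genes outside the rule. Set against all other kept cells, 22 of 29 tested genes of a cDC1 identity list were at least 2-fold higher in members, 3 were at least 2-fold lower, and the list's median log2 ratio was 2.97. Over all 13033 genes tested, those with at least 20 UMIs over both sets, 9.05% were at least 2-fold higher, 19.8% at least 2-fold lower, and the median was -0.24. The rule chose the members on these same cells, so the contrast is a description. A stricter filter was run first, at least 10 UMIs expected in the members, and was replaced after its results were seen because it dropped identity genes such as Snx22. Under it 236 of 7048 genes were higher and 1255 lower.

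Irf8, the lineage's central transcription factor, had 2060 CPM in sham members (interval 1944 to 2181) and 373.7 in all other cells. It was detected in 94.1% of members, against 19.8% of T cells, which serve here as background because they should hold little of these genes. T cells had a lower median depth, 1281 UMIs, so each cell was also thinned to 1000 UMIs: the shares were then 85.9% and 16.3%. Id2 had 542.0 CPM in members and 65.38 in the rest. Batf3 had 185.3 and 23.70, a log2 ratio of 2.97 (2.67 to 3.25). Zbtb46, a factor of all conventional dendritic cells, had 61.20 and 4.895. Flt3 had 201.1 and 16.47. Each of these regulators was thus above the remaining cells by more than the counting interval. Cst3 had 13098 CPM against 707.5 and was detected in 235 of 238 members.

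The 24 largest ratios against the rest held several endosomal and sensing genes. Tlr3, the receptor for double-stranded RNA, had 173.1 CPM in members and 9.603 in the rest, and was detected in 32.4% of members and 0.146% of T cells. Ppt1, a lysosomal thioesterase, had 1100 CPM against 58.58. Cadm1, an adhesion molecule, had 152.1 against 6.684, and the small GTPase Rab7b 246.5 against 19.48. Dnase1l3, a secreted nuclease, had 356.7 against 19.41. Cxcl9, a chemokine for Cxcr3-bearing T cells, had 348.0 against 11.22, and Sept3, a septin, 101.4 against 2.877. The other 17 genes of this ranking, among them Trpm2, Tnni2, Plbd1, Mpeg1, Aif1, Itgax and Ifi205, had log2 ratios from 3.13 (Rab32) to 4.76 (Trpm2).

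Not every gene of the identity list set members apart. Btla, an inhibitory receptor, had 143.4 CPM in members and 119.3 in the rest, and its interval held equal levels (log2 0.26, -0.07 to 0.58). Cd24a had 251.8 and 237.6 (log2 0.08, -0.16 to 0.32). Bcl11a, a transcription factor, was lower at 106.7 against 256.7. Plet1 and Nfil3 were represented by 3 and 2 UMIs in members, too few for a level.

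**Figure D2:**
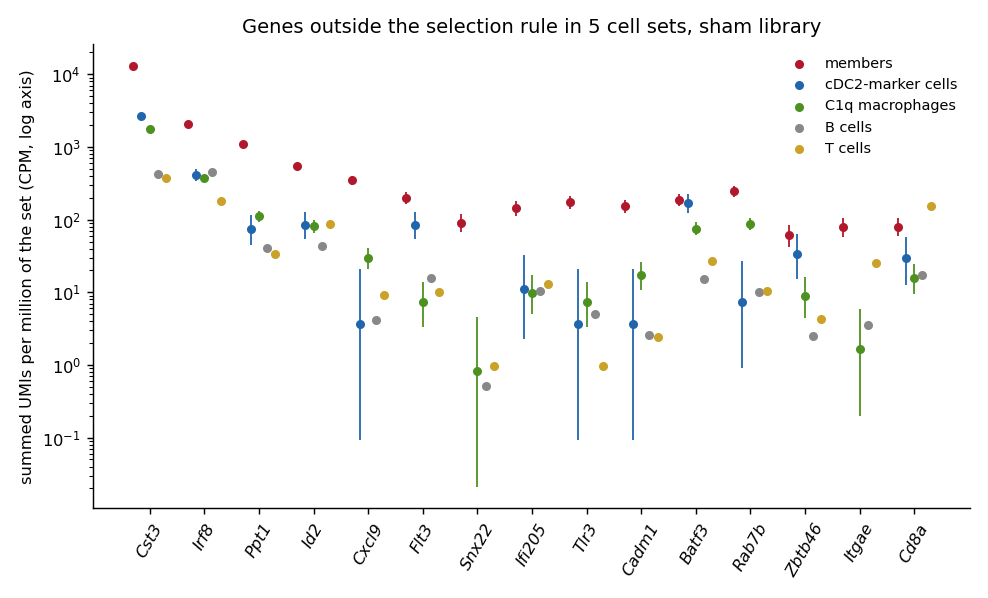
CPM on a log axis (y) of 15 genes outside the rule (x) in 5 cell sets of the sham library; vertical lines are Poisson 95% intervals of members, cDC2-marker cells and C1q macrophages, and sets at 0 UMIs have no point. Cst3 stands at 13098 CPM in members and 2633 in cDC2-marker cells, while Batf3 is at 185.3 and 171.1.

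Promoter sequence was read for the 24 leading genes and the 4 selection genes, from 250 bases before to 50 after the start (RefSeq, GRCm38.p6), of which 22 of 28 had an entry. For factors known in this lineage, 3 motifs were searched on both strands: an IRF repeat of GAAA, any 2 bases and GAAA, found in 3.44% of all 32851 promoters, an AP-1 motif TGANTCA (7.81%) and an ETS motif GAGGAAGT (3.20%). The IRF repeat was found in Aif1, Ifi205 and Jaml, the AP-1 motif in Cxcl9 and Itgax, and the ETS motif in Rab32. A match is a description of the letters and shows no binding. The promoters of both defining surface receptors, which held none of the 3, and of Cxcl9 and Ifi205 are shown, with matches in capitals.
Xcr1, chr9:123861980-123862279, minus strand: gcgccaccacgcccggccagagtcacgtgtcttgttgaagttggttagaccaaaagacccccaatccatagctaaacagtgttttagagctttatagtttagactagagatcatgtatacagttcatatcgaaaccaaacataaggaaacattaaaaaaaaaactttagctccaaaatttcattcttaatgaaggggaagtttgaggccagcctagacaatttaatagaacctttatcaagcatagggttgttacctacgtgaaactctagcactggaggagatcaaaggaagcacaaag
Clec9a, chr6:129408612-129408911, plus strand: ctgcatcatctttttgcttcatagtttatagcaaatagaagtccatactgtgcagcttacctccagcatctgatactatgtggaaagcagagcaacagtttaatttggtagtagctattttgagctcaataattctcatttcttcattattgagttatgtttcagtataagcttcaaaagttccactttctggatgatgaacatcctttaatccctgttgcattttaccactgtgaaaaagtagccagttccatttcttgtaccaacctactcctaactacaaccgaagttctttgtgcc
Cxcl9, chr5:92328030-92328329, minus strand: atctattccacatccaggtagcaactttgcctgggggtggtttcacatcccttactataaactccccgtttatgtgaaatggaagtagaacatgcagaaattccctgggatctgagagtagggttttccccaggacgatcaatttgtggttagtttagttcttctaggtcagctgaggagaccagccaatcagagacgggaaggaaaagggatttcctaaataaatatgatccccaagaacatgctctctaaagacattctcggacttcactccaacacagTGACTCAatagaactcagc
Ifi205, chr1:174031706-174032005, minus strand: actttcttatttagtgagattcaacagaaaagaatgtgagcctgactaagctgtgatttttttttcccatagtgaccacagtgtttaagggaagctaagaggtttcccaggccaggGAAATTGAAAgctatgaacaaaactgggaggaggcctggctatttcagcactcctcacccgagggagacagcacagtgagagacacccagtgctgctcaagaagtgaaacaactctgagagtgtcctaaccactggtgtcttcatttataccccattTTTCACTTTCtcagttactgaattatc

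The nearest relatives in the sham library were 145 cells selected on cDC2 markers: at least 2 UMIs over Cd209a, Cd209d, Mgl2 and Clec10a, the same MHC class II and exclusion limits, and 0 of Xcr1 and Clec9a. Against these cells 394 of 5318 genes were at least 2-fold higher in members (7.41%) and 413 at least 2-fold lower (7.77%), genes of the rules left out. With the further condition that the interval exclude equal levels the counts were 255 and 340. Of the cDC1 identity list 18 of 27 tested genes were higher and 1 was lower, with a median of 1.43 against -0.05 over all genes.

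Cxcl9 had the largest ratio of the named genes, with 199 UMIs in members and 1 in cDC2-marker cells (log2 6.55, 4.05 to 11.86). Tlr3 had 99 and 1 (5.54, 3.03 to 10.86), and Cadm1 87 and 1 (5.35, 2.84 to 10.67). Rab7b had 141 and 2 UMIs. Snx22, a sorting nexin, had 52 and 0, at least 8.15-fold higher per UMI with 0 set to 3 counts, and Itgae, the integrin chain CD103, had 45 and 0, at least 7.05-fold. Ppt1 was 14.8-fold higher, Id2 6.34-fold and Irf8 4.99-fold. Havcr2, which encodes the receptor TIM-3, had 43 UMIs against 1. Batf3 had 185.3 against 171.1 CPM, and its interval held equal levels (log2 0.12, -0.40 to 0.65), as did that of Itgax, the integrin chain CD11c (-0.09, -0.76 to 0.61).

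On the other side, Sirpa, a surface receptor that marks cDC2, was lower in members at 19.23 against 89.25 CPM. Irf4, the cDC2 factor, had 17.48 and 115.3, and Itgam, the integrin chain CD11b, 15.74 and 223.1. The lowest ratios were of Wfdc17 (6.994 against 464.8 CPM), Retnla (131.1 against 3663) and Mrc1, the mannose receptor (8.742 against 223.1). Of the chemokine genes, Ccl9 had 17.48 against 412.8 CPM and Ccl6 80.43 against 799.5. Clec12a went against its list, at 115.4 in members and 44.62 in cDC2-marker cells.

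The cDC2-marker set was mixed, and its other RNA stands beside these values. Monocyte markers summed to 2629 CPM there and 905.7 in members, macrophage markers to 2268 and 529.8, and pDC markers to 1116 and 393.4. Lyz2 had 1383 CPM against 230.8 in members, Fn1 780.9 against 143.4, Ear2 371.9 against 24.48 and Siglech 137.6 against 17.48. Immediate early genes, which respond to tissue digestion, summed to 3945 CPM there and 2464 in members. Their part in the lower genes was not tested.

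**Figure D3:**
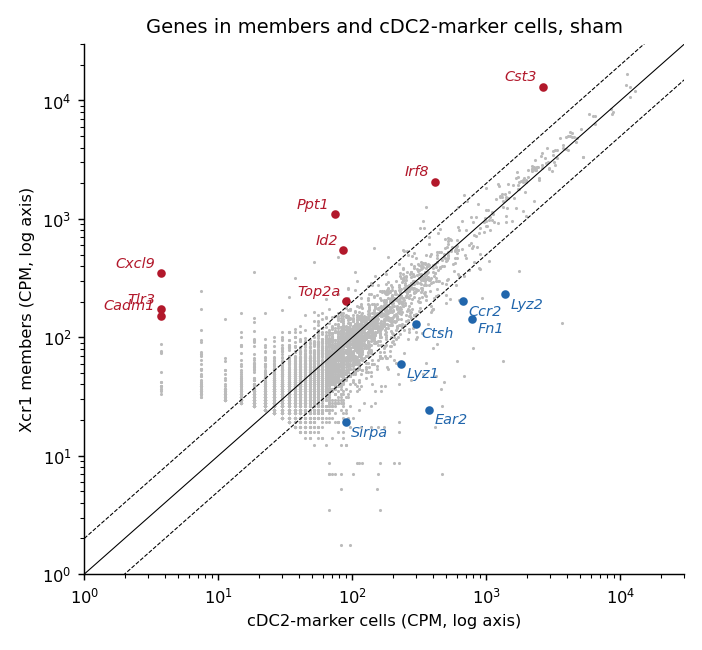
CPM of each tested gene in cDC2-marker cells (x) and members (y) of the sham library, both on log axes; the solid line marks equal levels and the dashed lines 2-fold, and genes at 0 in either set are not drawn. Irf8 lies at 412.8 and 2060, and Lyz2 at 1383 and 230.8.

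Of 8 MHC class II genes tested outside the rule, 0 were higher than in cDC2-marker cells and 1, H2-DMb2, was lower (92.67 against 200.8 CPM); the median was -0.15, and against macrophages it was 0.37. H2-Eb1, a class II beta chain, had 4432 and 4630 CPM. In the class I and cross-presentation list 6 of 23 genes were higher and 1 lower than in cDC2-marker cells, with a median of 0.34, and against macrophages the median was 0.28. Beside both lists, 7.41% of all genes were higher and 7.77% lower than in cDC2-marker cells. The medians over all genes were -0.05 against cDC2-marker cells and -0.22 against macrophages. The lists were not tested against each other. Psmb9, an immunoproteasome subunit, had 480.8 against 78.09 CPM (log2 2.62, 1.98 to 3.34). The peptide transporter chains Tap1 and Tap2 were 2.82-fold and 3.03-fold higher. Rab43, a GTPase known for cross-presentation in this lineage, had 358.4 against 104.1 CPM. The one lower gene was Cybb, the catalytic subunit of the phagosomal oxidase, at 61.20 against 357.0, while B2m, the class I light chain, was close at 1192 and 1030.

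A list of endosomal proteases, which also holds the lysosomal membrane proteins Lamp1 and Lamp2, the thiol reductase Ifi30 and the inhibitor Cst3, had 7 of 14 tested genes at least 2-fold lower than in cDC2-marker cells, where 7.77% of all genes were. Lamp1 and Ifi30 were among the 7, Cst3 alone was higher, and the median was -0.97. Against the macrophages described next, 11 of 14 were lower, Lamp1 and Lamp2 among them, where 18.1% of all genes were. Cst3 again was the 1 higher gene, and the median was -2.06. Cathepsin D (Ctsd) had 54.20 CPM in members, 185.9 in cDC2-marker cells and 903.9 in macrophages. Ctss, the cathepsin that trims the class II invariant chain, had 227.3, 502.0 and 692.4. Cst3, whose product inhibits such cathepsins, had 13098, 2633 and 1761.

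The macrophage set held 751 sham cells with at least 3 UMIs over C1qa, C1qb and C1qc. Members were at least 2-fold higher in 5.11% and at least 2-fold lower in 18.1% of 8435 genes tested. The median over all genes was -0.22, and -0.09 without mitochondrial and ribosomal protein genes in the total. Of the cDC1 identity list 24 of 27 genes were higher and 0 lower, with a median of 2.37. Flt3 had 201.1 CPM in members and 7.349 in macrophages, Tnni2 146.9 and 1.633, and Batf3, in contrast to its level in cDC2-marker cells, 185.3 and 75.12. All 11 tested macrophage markers were lower in members, with a median of -5.19. Apoe had 160.9 against 6045 CPM, and Csf1r, the receptor for macrophage growth factor, 19.23 against 685.0. Folr2 had 0 UMIs in members against 356, at least 55.4-fold lower.

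Several signalling lists were split. Against macrophages 8 of 15 cytokine and chemokine genes were lower, beside the 18.1% of all genes, and 1, Cxcl9, was higher. The inflammatory chemokines Ccl3 and Ccl4 were among the lower ones (3 UMIs against 40, and 26.23 against 73.49 CPM). In innate sensing, 3 of 12 tested genes were higher than in cDC2-marker cells and 1, Tmem173, was lower, beside 7.41% and 7.77% of all genes. Against macrophages 3 of 22 were higher, beside 5.11% of all genes. The higher genes were Tlr3, Tlr11 and Tlr12 against both sets. The profilin receptor Tlr11 had 37 UMIs against 2 in cDC2-marker cells and 1 in macrophages. Tlr4 and Tlr7 were among 6 of 22 lower than in macrophages, where 18.1% of all genes were lower. In the trafficking list 3 of 17 genes were higher and 3 lower than in cDC2-marker cells, beside the same 7.41% and 7.77%. Against macrophages 5 of 21 were higher and 8 lower, beside 5.11% and 18.1%. Ccr9, the gut-homing receptor, had 52.45 CPM against 8.165 in macrophages and 37.19 in cDC2-marker cells, the last within its interval (log2 0.50, -0.58 to 1.69). Of the retinoic acid and TGF-beta list 0 of 8 tested genes were higher and 1 lower than in cDC2-marker cells. Over all genes 7.41% were higher and 7.77% lower. Against macrophages 0 of 11 were higher and 5 lower, where 5.11% of all genes were higher and 18.1% lower. With so few genes tested, a count of 0 higher is near those shares. The list's Aldh1a2, an enzyme of retinoic acid synthesis known from migratory gut dendritic cells, had only 6 UMIs in members.

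**Figure D4:**
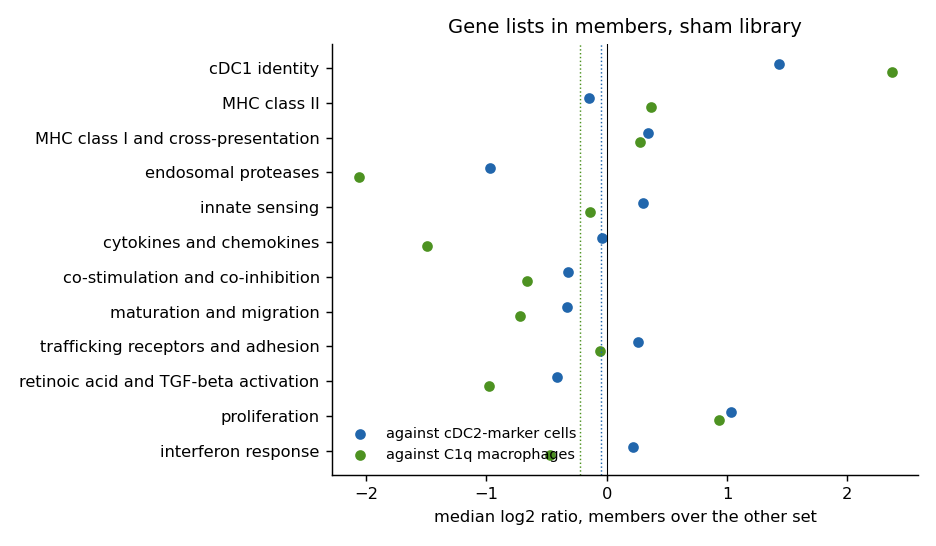
Median log2 ratio (x axis) of 12 gene lists (y axis) in sham members over cDC2-marker cells (blue) and over C1q macrophages (green); dotted lines are the medians over all genes tested, -0.05 and -0.22. The cDC1 identity list stands at 1.43 and 2.37 and the endosomal proteases at -0.97 and -2.06.

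Of the proliferation list 9 of 17 genes were at least 2-fold higher than in cDC2-marker cells and 0 lower, with a median of 1.03, where 7.41% of all genes were higher. Against macrophages the counts were 9 and 0 of 20, with a median of 0.93, where 5.11% of all genes were higher. The other 8 and 11 genes were within 2-fold. Hmgb2, a chromatin protein, had 1255 CPM in members and 353.3 in cDC2-marker cells, and Top2a, the mitotic topoisomerase, 202.8 and 89.25. Without the 5% of members with most UMIs the median against cDC2-marker cells was 0.83, under the 2-fold line. Against all other kept cells 1 of 20 was higher, H2afz, with a median of 0.47, where 9.05% of all genes were higher.

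Mki67 was found in 39, Top2a in 47 and the histone gene H2afz in 151 of 238 sham members. A total of 37 sham members (15.5%) held at least 2 UMIs over Mki67 and Top2a, a limit chosen after the values were seen, because 2 UMIs over the whole list took 171 members (71.8%). Their median depth was 2974 UMIs, against 2125 in the other 201. The list had 1426 UMIs in the 37 cells and 877 in the other 201. All 16 tested proliferation genes were at least 2-fold higher in the 37, which the choice of cells fixes in part, since Mki67 and Top2a are among the 16. Over all 3885 genes tested in this contrast 321 were higher and 342 lower. Pclaf, a replication factor, had 504.3 CPM in the 37 and 57.65 in the others. Irf8 had 2298 and 1996 CPM (log2 0.20, 0.00 to 0.40). Cxcl9 had 190.2 and 390.3 (log2 -1.04, -1.73 to -0.41), and Ccl5, a chemokine, 1 UMI against 47. Ccl5 was found in only 17 sham members, and 3 of them held 24 of its 48 UMIs, so its contrast rests on few cells. Of the 199 Cxcl9 UMIs in sham members 70 lay in 3 cells, so that contrast is less certain than its interval. In the colotomy library 2 of 39 members passed this limit.

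Mature, migrating dendritic cells carry the lymph node homing receptor Ccr7 and the actin bundler Fscn1. Only 6 sham members (2.52%) held at least 2 UMIs of the pair, 30 held exactly 1, and 202 held 0. The 6 cells summed to 19501 UMIs, so their values describe those cells alone. Apol7c had 1385 CPM in them and 115.9 in the other 232 members (27 and 64 UMIs), Ccl5 1077 and 48.88 (21 and 27 UMIs), and Marcksl1 615.4 and 18.10 (12 and 10 UMIs). Haemoglobin RNA stood beside them: Hbb-bs had 325 UMIs in the 6 cells, and a single sham member held 323. Ccr7 by itself was found in 12.6% of members and 21.3% of T cells, which also use it, so its share gives no measure of maturity. No cell passed both the Ccr7 and the cell cycle limit.

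CD103 (Itgae) and CD8 alpha (Cd8a) divide cDC1 of tissues from those of lymphoid organs. Among sham members 29 had Itgae without Cd8a, 30 Cd8a without Itgae, 9 had both and 170 neither. Itgae was detected in 38 of 238 members and in 3.15% of T cells. Cd8a was detected in 16.4% of members and 16.8% of T cells, among which CD8 T cells express it, and in 4.85% of members thinned to 1000 UMIs. At such shares an absent UMI does not show an absent transcript.

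Members spread unevenly in their chemokine RNA. Cxcl9 was detected in 45 of 238 sham members (18.9%), against 0.512% of T cells, and 3 members held 35.2% of its 199 UMIs. Irf8, in contrast, had 4.58% of its UMIs in the top 3 members. Il12b, a subunit of the T cell-polarising cytokine IL-12, had 14 UMIs, of which 13 lay in 1 of the 2 members where it was found.

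Between the operations, the share of kept cells that were members was lower in the colotomy library, by less than its counting error. The colotomy share over the sham share was 0.747, with an interval from 0.518 to 1.05. The answer depended on the cells counted beside them. Per C1q macrophage the ratio was 0.351 (0.243 to 0.493) and per cDC2-marker cell 0.485 (0.336 to 0.682), whereas per B cell it was 15.0 (10.4 to 21.1) and per T cell 4.15 (2.88 to 5.83). These intervals hold the counting error of the members only and take the numbers of the other cells as fixed. They are therefore too narrow where those cells were few, as with 49 cDC2-marker cells and 54 T cells in the colotomy library. B cells numbered 15173 of the kept sham cells and 166 of the kept colotomy cells. Since the colotomy library was shallower, the rule was also applied after thinning every kept cell to 500 UMIs. It then took 106 sham cells (0.252%, 0.206 to 0.304) and 19 colotomy cells (0.205%, 0.124 to 0.321).

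Of 25 tested genes of the identity list 4 were at least 2-fold higher in colotomy members and 1 lower, with a median of 0.09, where over all 3800 genes tested 14.9% were higher, 9.87% lower and the median was 0.11. A difference of the list from all genes was not tested. Without mitochondrial and ribosomal protein genes in the total, the medians were 0.00 over all genes and -0.03 over the list, and the counts over all genes turned from 568 higher and 375 lower to 449 and 491. A list of ribosomal and translation genes summed to 17170 CPM in colotomy and 26053 in sham members, with a median of -0.55. At the full total, and with an interval that excluded equal levels, 176 and 46 of all genes were left. Of the list only Itgae was left, with 8 UMIs against 45 (211.0 and 78.68 CPM, log2 1.42, 0.13 to 2.52). Its 8 colotomy UMIs lay in 6 cells, with 5 of them in 3 cells. Irf8 had 2321 CPM in colotomy and 2060 in sham members (log2 0.17, -0.16 to 0.49), Id2 685.7 and 542.0, and Ppt1 923.1 and 1100. Cst3 had 11790 and 13098. Cxcl9 had 6 UMIs, 158.2 CPM against 348.0 (log2 -1.14, -2.60 to 0.01). Of the selection genes, Naaa had 1741 against 797.3 CPM and Xcr1 1055 against 610.2. Detection, which falls with depth, is a different measure from CPM. Wdfy4 was detected in 41.0% of colotomy and 75.2% of sham members, and Clec9a in 43.6% and 55.9%. For Naaa the shares were 71.8% and 78.2%, and for Xcr1 79.5% and 79.0%. The rule needs the same number of UMIs from shallower cells, and how far that moves these values was not tested.

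Among the largest differences between the operations was RNA known from other cell types. The 6 named genes highest in colotomy members were the matrix genes Col1a2, Col1a1, Bgn, Col3a1 and Sparc and the growth factor binding protein Igfbp4. Col1a2 had 1635 CPM against 113.7 (log2 3.85, 3.32 to 4.37), and Col3a1 1978 against 185.3. Of Col3a1's 75 UMIs in colotomy members 45 lay in 1 cell and 59 in 3. The fibroblast list, of which 7 of 8 tested genes were at least 2-fold higher and 0 lower, summed to 8519 CPM in colotomy and 1558 in sham members. In T cells, which should lack it, it summed to 15564 and 3346 CPM. Erythroid genes summed to 448.4 CPM in colotomy and 5961 in sham members, and to 1075 and 9112 in T cells. Both lists thus lay on the same side in T cells as in members.

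Macrophage markers summed to 1820 CPM in colotomy and 529.8 in sham members, and to 1453 and 638.8 in T cells. Lyz2 had 1029 CPM against 230.8 in members, and Apoe 553.9 against 160.9. Of the inflammatory cytokine Il1b's 18 UMIs in colotomy members, 15 lay in 1 cell. The part of such RNA in the differences between the operations was not tested. The 6 named genes lowest in colotomy members, Eif3h, Evl, Ccdc12, Clk1, Zfas1 and Sf3b5, each had 1 UMI there. The interval of Eif3h ran from -8.59 to -0.77, and those of Zfas1 and Sf3b5 held equal levels. The X-inactivation RNA Xist had 17 UMIs in 6 of 39 colotomy members and 0 UMIs in the sham members, and 18 and 0 in T cells. Ddx3y, from the Y chromosome, was found in both libraries (7 and 44 UMIs in members), so the sex make-up of the pools and the operation cannot be told apart.

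**Figure D5:**
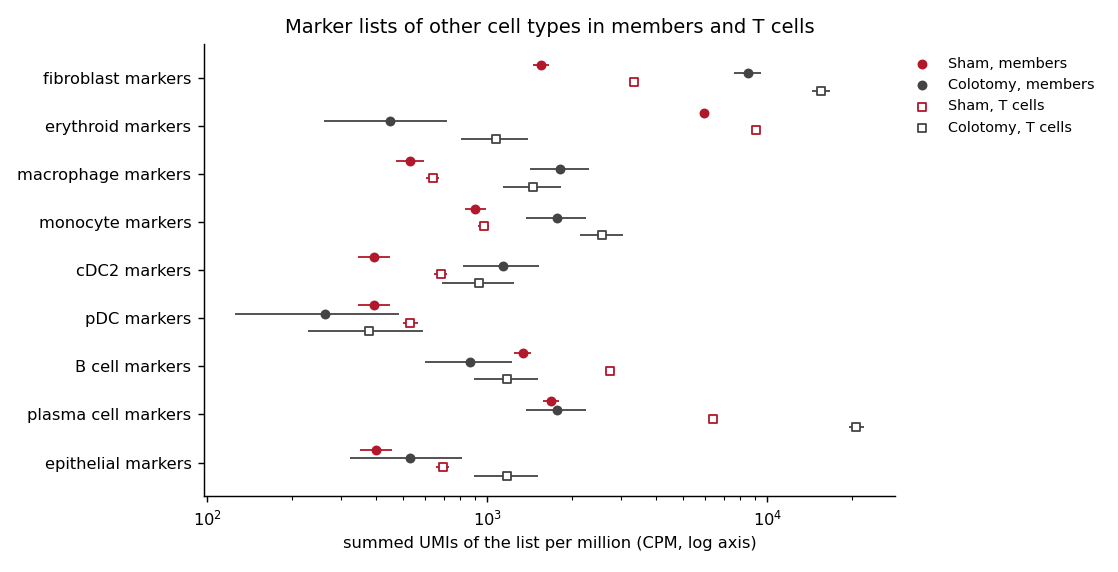
Summed CPM on a log axis (x) of marker lists of other cell types (y) in members (filled circles) and T cells (open squares) of the sham (red) and colotomy (grey) libraries, with Poisson 95% intervals. The fibroblast list is at 8519 CPM in colotomy and 1558 in sham members, and at 15564 and 3346 in T cells.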

How the data were processed

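Single-cell libraries of 2 groups, 1 each, were read from deposited matrices of raw UMI counts per gene and barcode; per the file headers these were made with Cell Ranger 6.0.0, and per the submitters' processing notes with mm10 and STAR 2.5.1b (Seurat and Space Ranger are listed without a role). How barcodes were called as cells is not given in the sources used here. The libraries held 44814 (sham) and 15547 (colotomy) barcodes with 74006762 and 12002711 gene UMIs over 32285 genes. A barcode was kept with 500 or more UMIs of genes, 300 or more detected genes and a mitochondrial share below 20%. No doublet caller was run. A setting without the 5% of members with most UMIs was run, but it cannot remove doublets of cells with few UMIs.

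UMIs were summed per cell set (Python 3.11.15, scipy 1.17.1). Shares have exact Clopper-Pearson, CPM exact Poisson and ratios exact conditional binomial 95% intervals. They treat UMIs as independent, so a gene concentrated in a few cells is less certain than its interval. Genes needed at least 20 UMIs over both sets, and a count of 0 was set to 3 counts. The ratios were tested on simulated data, independent Poisson counts drawn from the summed profiles. That setting shares the assumption of independent UMIs, so it cannot show how the intervals hold for genes concentrated in a few cells. Named genes were the 24 largest ratios against the rest, the 12 largest and 12 smallest against each neighbouring set (at least 50 UMIs and 100 CPM in the higher set), 6 and 6 between libraries and 8 and 8 for the Ccr7 cells (at least 20 UMIs and 100 CPM), and any gene of the 28 gene lists; 2 list genes had no row. Prox1, Vwf and sex-linked genes were examined after values were seen. Members, lists and thresholds were chosen with earlier results of these data known.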

Additional observations from a re-analysis of the deposited data

How the results depend on the processing

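The sham share of members was 0.765% of cells with at least 1000 UMIs and 500 genes, 0.479% with at least 3 marker UMIs, 0.252% after thinning to 500 UMIs and 0.847% (8 of 944) among cells given to 1 hashtag. The colotomy share was 0.292%, 0.205% and 0.864% (5 of 579) under the last 3. Colotomy over sham turned to 1.02 among the hashtag cells, from 0.747. Among hashtag cells the counts of genes at least 2-fold higher and lower were 15 and 5 of 117 tested against cDC2-marker cells, 62 and 33 of 229 against macrophages and 4 and 31 of 133 between libraries. Against all other cells they were 1295 and 224 of 3659, where the main setting gave 1179 and 2585 of 13033. Fewer genes were tested, and only 8 sham and 5 colotomy members were left. With at least 50 UMIs over both sets the counts were 140 and 134 (cDC2-marker cells), 240 and 828 (macrophages) and 109 and 180 (between libraries). With at least 10 UMIs they were 787 and 833 (cDC2-marker cells), 656 higher (macrophages) and 1144 higher (between libraries). Between libraries 203 were lower where cells needed 1000 UMIs and 500 genes.

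Settings added after the data were seen were the following. Counts whose interval also excluded equal levels were 605 and 1467 (all other cells), 255 higher (cDC2-marker cells) and 176 and 46 (between libraries). The filter that was run first against all other cells, at least 10 UMIs expected in members, gave 236 and 1255. Members without a fibroblast marker UMI, 97 sham and 14 colotomy cells, gave 209 higher (cDC2-marker cells) and 201 and 122 (between libraries). Shares of members with a UMI thinned to 1000 UMIs were 85.9% (Irf8), 63.9% (Ppt1), 13.7% (Cxcl9), 20.3% (Tlr3), 7.49% (Itgae) and 4.85% (Cd8a), and thinned to 2000 UMIs 100% (Cst3). Of 1174 medians of lists and of all genes under these settings 55 crossed the 2-fold line, as did 6 of 947 values of named genes, and 0 of either that were past it changed sign. Apart from settings that test fewer genes or cells by construction, the cause was not tested. No paired analysis was possible because there was 1 library per group.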

Other observations

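Kit, the stem cell factor receptor, was found in 43 of 238 sham members (18.1%) and 0.878% of T cells. It had 99.66 CPM in members, 14.87 in cDC2-marker cells and 4.899 in C1q macrophages. All 57 UMIs of the mast cell list in sham members were Kit's, and the other 5 genes of that list, Cpa3 among them, were at 0. Among the Mki67 and Top2a members Kit had 41.34 CPM, against 115.3 in the rest (log2 -1.48, -3.16 to -0.17).

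Clec12a, a receptor for uric acid crystals listed here among cDC2 markers, was found in 23.9% of sham members and 0.805% of T cells. Prox1, the lymphatic endothelial factor, had 19 UMIs in sham members and 0 in cDC2-marker cells, with 15 of the 19 in 1 cell. Vwf, an endothelial gene, had 10 UMIs spread over 10 members.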
